A study of Mus musculus with 12 samples.

Results

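The 9 genes described here encode the 3 TGF-beta ligands (Tgfb1, Tgfb2 and Tgfb3), their 3 receptors (Tgfbr1, Tgfbr2 and Tgfbr3), the latency protein gene Ltbp1, the inhibitory Smad gene Smad7 and the matrix gene Tgfbi. They were chosen by symbol among 24421 gene symbols, and all 9 were among the 15246 genes with enough reads to be tested. The lungs came from wild-type CD-1 mouse embryos of embryonic day 12.5 (E12.5) and were cultured whole in Matrigel at an air-liquid interface. From the next day, called Day 0, lungs were kept for 2 days with 20% PEG-HCC in solution. This polymer stiffens where a two-photon laser crosslinks it. The 3 groups were lungs at Day 0, Day 2 controls in uncrosslinked solution and Day 2 lungs under compression by crosslinked polymer around them, with 4 libraries each. All 3 groups were explants without blood flow or breathing movement. The compression group differs from controls in restriction, in crosslinked polymer and in the laser crosslinking itself, which cannot be told apart. The labels do not say whether Day 0 lungs had met the solution, so time and solution cannot be told apart in comparisons with Day 0.

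TGF-beta ligands are secreted bound to a cleaved part of their own precursor, and latent binding proteins such as that of Ltbp1 tether this complex to the matrix. Integrins and other proteins release the ligand, which binds the type II receptor. The type II receptor then activates the type I receptor, and Smad2 and Smad3 carry the signal with Smad4 to the nucleus. In the embryonic lung, TGF-beta signalling takes part in branching, smooth muscle formation and matrix deposition, and excess ligand slows branching in culture.

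Stretches before the start sites are shown for Tgfb1 and Tgfb2, ligands of low and high transcript level here, and for both listed starts of Ltbp1, the member with the largest fall. The sequences are RefSeq's for GRCm38.p6, and windows of 6 of the 9 members were searched. Each is the 250 bases up to the base before the start, 5′ to 3′ on the gene's strand. Capitals mark matches on either strand to 4 short motifs, which do not overlap each other here. They are the TATA box (TATAAA), the GC box (GGGCGG), the cyclic AMP response element (TGACGTCA) and a Smad-binding element (CAGACA). The 4 windows are chr7:25686752-25687001 (plus strand), chr1:186705990-186706239 (minus strand), chr17:75005279-75005528 and chr17:75178531-75178780 (both plus strand).
Tgfb1: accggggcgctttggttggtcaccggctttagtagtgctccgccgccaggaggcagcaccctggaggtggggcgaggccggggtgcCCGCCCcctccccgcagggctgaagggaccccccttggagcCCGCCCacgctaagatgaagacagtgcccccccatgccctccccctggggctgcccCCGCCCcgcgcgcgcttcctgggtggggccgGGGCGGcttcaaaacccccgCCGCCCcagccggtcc
Tgfb2: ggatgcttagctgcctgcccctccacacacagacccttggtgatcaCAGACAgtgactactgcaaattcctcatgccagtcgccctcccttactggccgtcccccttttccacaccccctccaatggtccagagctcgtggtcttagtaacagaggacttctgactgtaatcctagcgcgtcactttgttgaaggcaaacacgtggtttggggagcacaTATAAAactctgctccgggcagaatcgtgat
Ltbp1 first start: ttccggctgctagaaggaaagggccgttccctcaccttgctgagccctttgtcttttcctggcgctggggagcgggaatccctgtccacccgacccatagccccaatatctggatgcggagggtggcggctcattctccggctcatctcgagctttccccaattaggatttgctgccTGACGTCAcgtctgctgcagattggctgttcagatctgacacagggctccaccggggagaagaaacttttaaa
Ltbp1 second start: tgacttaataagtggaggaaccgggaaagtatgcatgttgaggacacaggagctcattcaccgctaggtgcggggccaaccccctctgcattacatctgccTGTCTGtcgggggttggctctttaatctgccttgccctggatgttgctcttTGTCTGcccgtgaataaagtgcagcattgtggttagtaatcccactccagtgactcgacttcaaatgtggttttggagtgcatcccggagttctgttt

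The Tgfb1 window held 5 GC boxes, which 32.7% of all 32851 windows of this length had at least once, and no TATA box. The Tgfb2 window held a TATA box 31 bases before the start (12.4% of all windows had one) and a Smad-binding element at 204 bases (17.1%). The first Ltbp1 window held a cyclic AMP response element 73 bases before the start (1.55%), and the second held 2 Smad-binding elements. The long and short forms of Ltbp1 start at different promoters, and the counts, given per symbol, do not separate them. These matches describe letters only. Binding was not measured.

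Total counts per library ranged from 13979871 to 33249761, and the 9 genes had between 337 and 11353 counts in any library. Counting alone gives a coefficient of variation of 1.17% to 4.54% for these genes by group, against 1.95% to 22.5% between libraries, and the 2 were closest for Tgfb2 under compression (1.20% and 1.95%) and Smad7 in controls (2.86% and 4.38%). Levels are CPM, counts scaled to library size, after TMM scaling of library sizes, given as mean ± SD (n = 4). Whether each library is a different animal is not stated, so p-values measure only the spread between these libraries. Compression replicates 2 and 3, whose descriptions share a number, were closer than any other pair within a group (mean chi-square per gene 4.07, against at least 7.48). Other pairs within the compression group lay at 38.1 to 122. The labels do not say whether these 2 libraries come from 1 lung. If they do, the 4 compression libraries are not independent, as their SDs, p-values and non-overlap assume. Control replicate 4 held liver transcripts (summed CPM of 10 liver markers 1928, against at most 106 in every other library). Markers of lung mesenchyme and epithelium were present in every group, with none of 10 at 0 in either list. In whole-lung RNA, fewer cells of a type and less RNA per cell cannot be told apart.

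Marker lists of several cell types moved with sampling day. Endothelial markers (10 genes summed) summed to 359 to 598 CPM in Day 0 libraries, to 62.9 to 122 in Day 2 controls and to 96.8 to 114 in compression libraries, and all 10 fell from Day 0 to Day 2 control. Epithelial markers lay at 1187 to 1396, 2554 to 2711 and 2600 to 3437 CPM. Leukocyte markers lay at 177 to 204, 233 to 437 and 360 to 465 CPM, with control replicate 4 the highest control. Mesenchymal markers lay at 6453 to 7661, 5775 to 7520 and 6550 to 7976 CPM. Large parts of these sums are Col1a1, Col1a2 and Col3a1 (Day 0 means 1311, 1312 and 2938 CPM), which are also in the target list below. The mesenchymal sums overlapped, but against Day 0 7 of the 10 markers were called lower in controls (median log2 fold change -0.379). Under compression against Day 0, 5 were called lower and 1 higher. Mesothelial markers, 9 genes, lay at 168 to 223, 271 to 383 and 285 to 295 CPM. Red cell markers lay at 1060 to 2186, 110 to 192 and 114 to 210 CPM, with 4 of 10 at 0 throughout each group. Airway cartilage markers lay at 505 to 606, 339 to 445 and 375 to 459 CPM, with 5 called lower in controls. Sox9 is in the epithelial and cartilage lists, and Krt19 in the epithelial and mesothelial lists. The part of these marker shifts in the values below was not tested.

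To compare genes, CPM was divided by the length of each gene's merged exons in kb. The order was much the same in the 3 groups. Tgfbi stood first (80.2 ± 7.79 CPM per kb at Day 0, 68.5 ± 6.29 in controls, 67.2 ± 5.28 under compression), and its libraries did not overlap those of any gene below it. Tgfb3 and Tgfb2 followed, with overlapping libraries at Day 0 (37.2 ± 1.82 and 36.8 ± 1.74 CPM per kb) and Tgfb3 above Tgfb2 in every Day 2 library (54.1 ± 4.70 and 42.6 ± 4.66 in controls, 48.3 ± 1.86 and 41.9 ± 0.817 under compression). Tgfb1 was the lowest of the 9 in each group, at 4.79 ± 1.08, 5.41 ± 1.14 and 6.47 ± 0.873 CPM per kb. Between these, Tgfbr1 stood above Tgfbr2 at Day 0 without overlap (25.1 ± 2.44 and 17.9 ± 3.88), the 2 overlapped in controls (20.6 ± 2.14 and 21.4 ± 0.945), and Tgfbr2 stood above Tgfbr1 without overlap under compression (25.1 ± 1.51 and 19.3 ± 1.41). The Day 0 gap was narrow, with the lowest Tgfbr1 library at 22.79 and the highest Tgfbr2 library at 22.43 CPM per kb. It rests on the exon lengths, since in CPM the 2 genes overlapped at Day 0 (148.9 to 185.3 and 114.6 to 183.6). Ltbp1, Smad7 and Tgfbr3 lay between 8.75 and 13.9 CPM per kb on average in every group, below both signalling receptors.

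**Figure D1:**
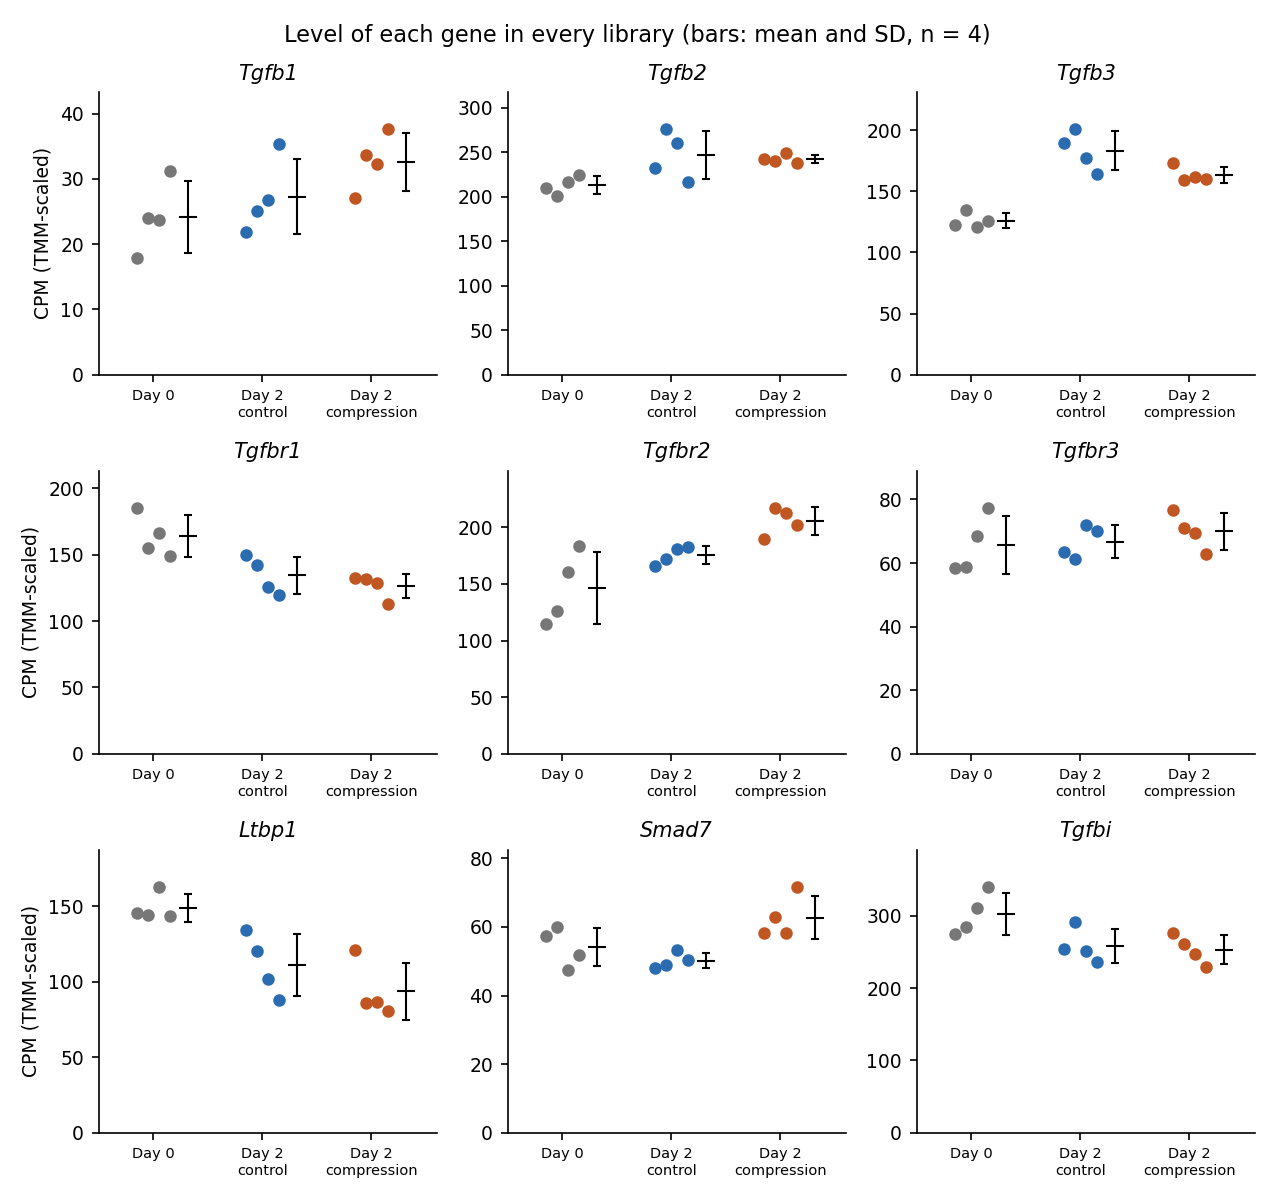
Points give the level of each of the 9 genes in every library as TMM-scaled CPM (vertical axes from 0, each with its own range) for Day 0, Day 2 control and Day 2 compression, with the mean and SD of 4 libraries beside them. Tgfb3 at Day 2 lies above all Day 0 libraries, Ltbp1 below them, and the 4 compression libraries of Smad7 and of Tgfbr2 lie above all 4 controls.

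Between Day 0 and Day 2 the 9 genes went both ways. In controls, edgeR's quasi-likelihood test called 2 higher (Tgfb2, Tgfb3) and 3 lower (Tgfbr1, Ltbp1, Tgfbi), 5 of 9 beside 40.2% of all tested genes (22.6% higher and 17.6% lower). Libraries of the 2 groups did not overlap for 2 of the 9, against 37.9% of all genes. Under compression against Day 0, 3 were called higher (Tgfb2, Tgfb3, Tgfbr2) and 3 lower (Tgfbr1, Ltbp1, Tgfbi), 6 of 9 beside 49.1% of all genes (26.6% higher and 22.5% lower), and 5 did not overlap, against 43% of all genes. With 9 genes, shares this close to the background are no result about the 9. Both comparisons use the same Day 0 libraries. Their median log2 fold changes over the 9 genes were 0.02 and 0.19, against 0.02 for all genes in each.

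Compression against control asks what restriction of growth by crosslinked polymer, including the crosslinking itself, did to these transcripts. None of the 9 passed the adjusted threshold, nor did any gene (0%, lowest adjusted p = 0.0767). At an unadjusted p under 0.05 stood 2 of the 9 (Smad7, higher, and Tgfb3, lower), where 12.1% of all genes did. Smad7 and Tgfbr2 were higher under compression with no overlap between the groups, against 5.77% of all genes without overlap. The median log2 fold change of the 9 was -0.02, beside 0.00392 over all genes. Over all genes DESeq2 called 51 higher and 18 lower, with none of the 9, and limma-voom (quality-weighted) gave 1139 higher and 819 lower, with Smad7 alone of the 9. Without control replicate 4, edgeR called 52 genes higher and 1 lower, and without compression replicate 1, 9 and 10, again with none of the 9.

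**Figure D2:**
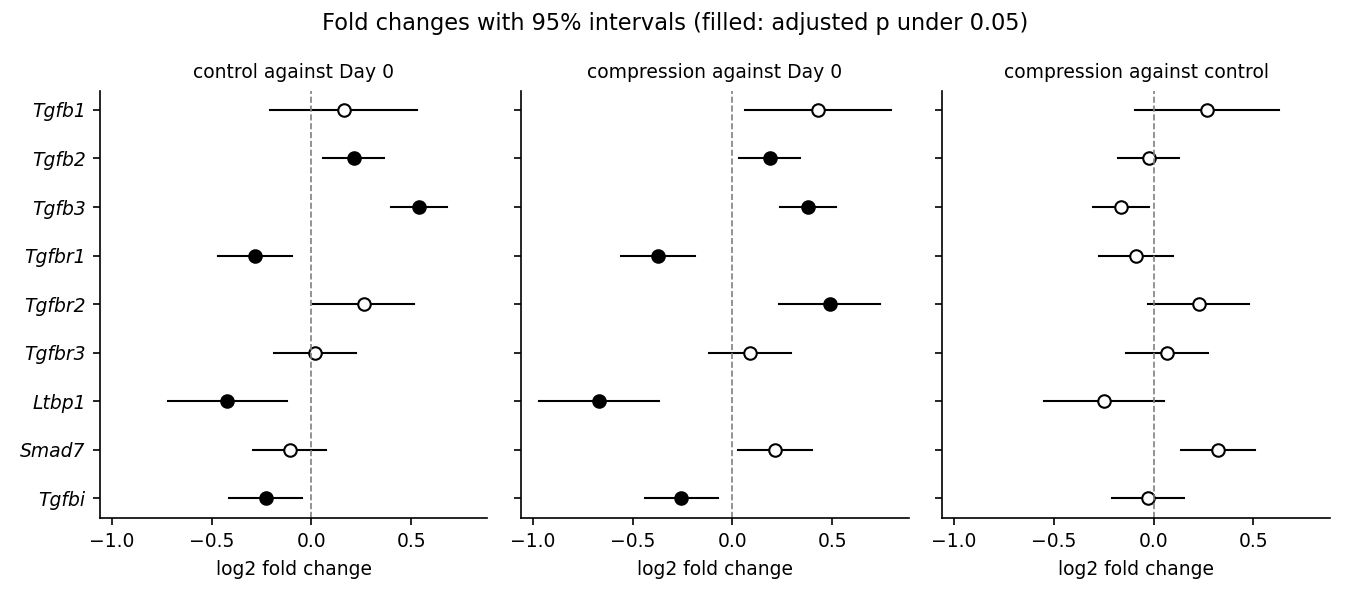
Points give the log2 fold change of each gene from the fit of all 12 libraries and lines its 95% interval, for controls against Day 0, compression against Day 0 and compression against control. Filled points passed the adjusted threshold of 0.05 in edgeR's quasi-likelihood test, and none is filled for compression against control, where the interval of Smad7 (0.14 to 0.51) lies above 0.

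Of the ligands, Tgfb3 had the clearest change with time. Mice without this ligand die at birth with cleft palate and delayed lung maturation. Its Day 0 libraries stood at 122, 134, 121 and 126 CPM, its controls at 190, 201, 177 and 164 CPM, and its compression libraries at 173, 159, 161 and 160 CPM. Every Day 2 library was thus above every Day 0 library, and compression replicates 2 to 4 lay below all 4 controls while replicate 1 lay among them. Tgfb3 rose 1.46-fold in controls (log2 fold change 0.54, SE 0.07, adjusted p = 2.706e-05) and 1.30-fold under compression (0.38, SE 0.06, adjusted p = 3.327e-04). Compression against control gave -0.16 (SE 0.06, 95% interval -0.30 to -0.03), with an adjusted p of 0.380. In GRCm38 the gene lies on chromosome 12 (86056745 to 86079041, minus strand), and 7.60% of its exon length is shared with Gm48008 on the opposite strand.

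Tgfb2 encodes the ligand whose loss disturbs heart, lung and craniofacial development, and it binds the signalling receptors weakly without the co-receptor encoded by Tgfbr3. Tgfb2 stood at 210, 201, 217 and 225 CPM at Day 0, at 233, 276, 261 and 217 CPM in controls and at 243, 241, 249 and 238 CPM under compression. The compression libraries lay above all Day 0 libraries, close together, whereas the controls ranged more widely and overlapped both groups. Against Day 0 the gene rose 1.16-fold in controls (log2 0.21, SE 0.07, adjusted p = 0.0293) and 1.14-fold under compression (0.19, SE 0.07, adjusted p = 0.0418). Between the Day 2 groups the difference was -0.02 (SE 0.07, 95% interval -0.18 to 0.13). The call in controls was lost without Day 0 replicate 1, 2 or 3 or control replicate 2 or 3 (adjusted p up to 0.132, with 0.14 without control replicate 2). It was also lost without a low-count filter (0.0501), with only the 8 libraries compared (0.0633) and with compression replicates 2 and 3 summed (0.0515). The call under compression was lost without any of the 4 compression libraries or Day 0 replicate 1, 2 or 3 (adjusted p up to 0.121), with RLE size factors (0.0595), without a low-count filter (0.0632) and with compression replicates 2 and 3 summed (0.105), 10 of 17 alternatives in all. The gene lies on chromosome 1 (186622792 to 186705989, minus strand), and 2.14% of its exon length is shared with Gm29491 on the opposite strand.

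Tgfb1, the ligand best known from leukocytes, platelets and endothelium, had the lowest level and a wide spread within groups. Its libraries stood at 17.8, 23.99, 23.7 and 31.2 CPM at Day 0, at 21.8, 25.2, 26.8 and 35.3 CPM in controls and at 27, 33.6, 32.2 and 37.7 CPM under compression. All 3 groups overlapped, and the highest control was replicate 4, the library with liver transcripts and the highest leukocyte marker level among controls. Day 0 replicate 4 was likewise the highest of its group for Tgfb1 and for leukocyte markers. Under compression, replicate 4 had the highest Tgfb1 level but the lowest leukocyte marker sum of its group (360 CPM). Compression replicate 1 had the lowest Tgfb1 level of its group, with a leukocyte marker sum (456 CPM) above every control. Whether Tgfb1 followed leukocyte markers was not tested. The log2 fold change was 0.16 (SE 0.17) for controls against Day 0, 0.43 (SE 0.17, adjusted p = 0.0503) for compression against Day 0 and 0.27 (SE 0.17, 95% interval -0.10 to 0.63) between the Day 2 groups. Single libraries moved all 3 values. Compression against Day 0 ranged from 0.28 (adjusted p = 0.180) without Day 0 replicate 1 to 0.56 (adjusted p = 0.0149) without Day 0 replicate 4, and it also passed without compression replicate 1 (0.49, adjusted p = 0.0396), with DESeq2 (0.0416) and with limma-voom (0.0111). Controls against Day 0 gave 0.0030 without control replicate 4, 0.014 without Day 0 replicate 1, 0.30 without Day 0 replicate 4 and 0.24 without control replicate 1. Compression against control gave 0.42 without control replicate 4 and 0.18 without control replicate 1. Tgfb1 lies on chromosome 7 (25687002 to 25705077, plus strand).

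Together the 3 ligands summed to 78.8 ± 2.61 CPM per kb at Day 0, 102 ± 7.92 in controls and 96.7 ± 1.34 under compression, with both Day 2 groups above every Day 0 library. Tgfb3 made up 47.2 ± 2.21% of this sum at Day 0, 53.0 ± 2.00% in controls and 49.9 ± 1.32% under compression. Tgfb2 made up 46.7 ± 1.97%, 41.7 ± 1.85% and 43.4 ± 0.759%. The share of Tgfb1 stayed between 4.30% and 7.79% in every library.

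**Figure D3:**
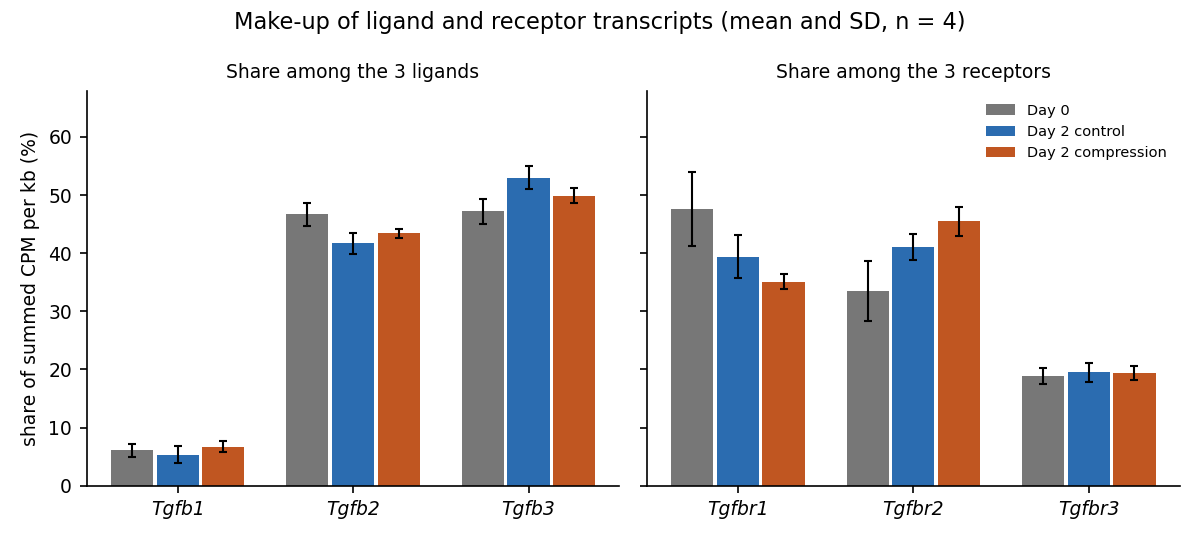
Bars give the mean share (%) of each gene in the summed CPM per kb of the 3 ligands (left) and the 3 receptors (right), with the SD of 4 libraries, by group. Tgfb3 is the larger ligand share at Day 2 (53.0% in controls), and among receptors Tgfbr1 is largest at Day 0 (47.6%) and Tgfbr2 under compression (45.5%).

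Of the receptors, under compression against Day 0, the type I transcript fell and the type II transcript rose. Tgfbr1 encodes the type I receptor kinase (ALK5), which phosphorylates Smad2 and Smad3. It stood at 185, 155, 166 and 149 CPM at Day 0, at 150, 143, 126 and 120 CPM in controls and at 132, 132, 128 and 113 CPM under compression. The compression libraries were below all Day 0 libraries, and only control replicate 1, at 149.7 CPM, reached the lowest Day 0 library, at 148.9 CPM. The gene fell 17.9% in controls (log2 -0.28, SE 0.09, adjusted p = 0.0179) and 22.9% under compression (-0.38, SE 0.09, adjusted p = 0.00278), and the Day 2 groups differed by -0.09 (95% interval -0.28 to 0.10). It lies on chromosome 4 (47353222 to 47414931, plus strand).

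Tgfbr2 encodes the type II receptor, which binds ligand and activates the type I receptor. Its Day 0 libraries spread widely, at 115, 126, 161 and 184 CPM. Controls stood at 166, 172, 181 and 183 CPM and compression libraries at 189, 217, 213 and 202 CPM. Each compression library was above every control and every Day 0 library, and the controls overlapped Day 0. Tgfbr2 rose 1.40-fold under compression against Day 0 (log2 0.49, SE 0.12, adjusted p = 0.00377). Controls against Day 0 gave 0.26 (SE 0.12, adjusted p = 0.0914), with 0.14 (adjusted p = 0.311) without Day 0 replicate 1, the lowest of that group, and 0.37 (adjusted p = 0.0104) without Day 0 replicate 4, the highest. Compression against control gave 0.23 (SE 0.12, 95% interval -0.03 to 0.48, adjusted p = 0.448). The gene lies on chromosome 9 (116084293 to 116175360, minus strand).

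Tgfbr3 encodes betaglycan, the co-receptor that presents ligand, Tgfb2 in particular, to the type II receptor. It stood at 58.4, 58.7, 68.6 and 77.4 CPM at Day 0, at 63.5, 61.3, 72.1 and 70.0 CPM in controls and at 76.7, 71.0, 69.4 and 62.8 CPM under compression. The groups overlapped throughout. Its 95% intervals ran from -0.19 to 0.22 for controls against Day 0, from -0.12 to 0.29 for compression against Day 0 and from -0.14 to 0.27 between the Day 2 groups. It lies on chromosome 5 (107106570 to 107289629, minus strand), and 4.54% of its exon length is shared with Gm43422 on the same strand.

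As a share of the 3 receptors per kb, Tgfbr1 went from 47.6 ± 6.44% at Day 0 to 39.4 ± 3.72% in controls and 35.1 ± 1.34% under compression. Tgfbr2 went from 33.5 ± 5.11% to 41.1 ± 2.23% and 45.5 ± 2.52%. Control and compression libraries overlapped in both shares (35.7% to 43.3% and 33.5% to 36.8% for Tgfbr1, 38.4% to 43.4% and 42.0% to 47.9% for Tgfbr2).

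Ltbp1, whose protein links latent TGF-beta to fibrillin and fibronectin in the matrix, had the largest fall of the 9. Day 0 libraries stood at 145, 144, 163 and 143 CPM, controls at 134, 120, 102 and 87.6 CPM and compression libraries at 121, 85.9, 86.3 and 80.8 CPM. All 8 Day 2 libraries were below all 4 Day 0 libraries. Control replicates 1 and 2 and compression replicate 1 formed the upper part of the Day 2 range. Ltbp1 fell 25.3% in controls (log2 -0.42, SE 0.14, adjusted p = 0.0272) and 37.2% under compression (-0.67, SE 0.14, adjusted p = 0.00147). The call in controls was lost without Day 0 replicate 3 (adjusted p = 0.0594), control replicate 3 (0.0562) or control replicate 4 (0.0543). Compression against control gave -0.25 (SE 0.14, 95% interval -0.55 to 0.05, adjusted p = 0.472), with -0.40 (adjusted p = 0.116) without compression replicate 1 and -0.14 (0.790) without control replicate 1. The gene lies on chromosome 17 (75005568 to 75392512, plus strand).

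Smad7, an inhibitory Smad that blocks the type I receptor and is itself induced by TGF-beta and BMP signals, had the smallest p of the 9 between the Day 2 groups. It stood at 57.5, 59.9, 47.4 and 51.8 CPM at Day 0, at 48.2, 48.9, 53.2 and 50.4 CPM in controls and at 58.1, 62.8, 58.2 and 71.7 CPM under compression. All compression libraries were above all controls, and both Day 2 groups overlapped Day 0. Compression against control gave a log2 fold change of 0.32 (SE 0.09, 95% interval 0.14 to 0.51), a 1.25-fold higher mean with an unadjusted p of 0.00214 and an adjusted p of 0.309. The adjusted p was 0.0747 with DESeq2, 0.0200 with limma-voom (0.27) and 0.640 with compression replicates 2 and 3 summed. Against Day 0, controls gave -0.11 (SE 0.09) and compression 0.21 (SE 0.09, adjusted p = 0.0526). The compression value against Day 0 was 0.12 (adjusted p = 0.226) without compression replicate 4, 0.14 (0.226) without Day 0 replicate 3 and 0.26 (adjusted p = 0.0285) without Day 0 replicate 2. The control value was -0.06 without Day 0 replicate 2 and -0.18 without Day 0 replicate 3. Smad7 lies on chromosome 18 (75367529 to 75395935, plus strand).

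Tgfbi encodes a secreted matrix protein that binds collagens and integrins and was first found as a TGF-beta-induced transcript. Its libraries stood at 274, 285, 311 and 340 CPM at Day 0, at 254, 292, 251 and 236 CPM in controls and at 276, 261, 247 and 230 CPM under compression. Both Day 2 groups lay mostly below Day 0, and each overlapped it by 1 library, control replicate 2 and compression replicate 1. Tgfbi fell 14.6% in controls (log2 -0.23, SE 0.08, adjusted p = 0.0453) and 16.3% under compression (-0.26, SE 0.08, adjusted p = 0.0223). The call in controls was lost without Day 0 replicate 3 or 4 or control replicate 1, 3 or 4 (adjusted p up to 0.0963), and with unscaled library totals (0.0805). Between the Day 2 groups the difference was -0.03 (95% interval -0.21 to 0.15). It lies on chromosome 13 (56609523 to 56639562, plus strand).

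For each member, the genes closest to it over the 12 libraries (Pearson's r of log2 CPM, among 11216 genes with a mean of at least 5 CPM) are given as a description. These libraries share the same groups and day, which alone gives high values. Tgfb1 was closest to Vat1 (0.963) and Adgrg1 (0.953), Tgfb2 to Enpep (0.914) and Krt15 (0.894), and Tgfb3 to Zfp185 (0.976) and Grip1 (0.975). Tgfbr1 was closest to Pus10 (0.980) and Matr3 (0.977), Tgfbr2 to Apobec3 (0.982) and Tgoln1 (0.974), and Tgfbr3 to Acp2 (0.866) and Acox3 (0.865). Ltbp1 was closest to Btrc (0.987) and Dido1 (0.975), Smad7 to Sdhd (0.880) and Rbfa (0.865), and Tgfbi to Has2 (0.927), a hyaluronan synthase gene, and Mcm3ap (0.919). Among the members themselves, Ltbp1 followed Tgfbr1 (0.879) and Tgfb1 ran opposite to Tgfbr1 (-0.865).

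The other genes of the pathway were followed in 4 lists of 62 genes in all, every one tested. From Day 0 to Day 2 control, 20 were called higher and 15 lower, 56.5% of the 62 against 40.2% of all genes. Under compression 22 were higher and 13 lower, again 56.5%, against 49.1% of all genes. Among 15 genes of latency and activation, 5 rose in controls and 2 fell, 46.7% of the list against 40.2% of all genes. Ltbp2, a matrix relative of Ltbp1 that does not bind latent TGF-beta, rose from 11.2 ± 4.41 to 77.7 ± 15.9 CPM (log2 2.77, adjusted p = 2.262e-06). Itgb6, the epithelial integrin subunit that activates latent TGF-beta with the alpha v chain, rose from 5.67 ± 0.836 to 21.9 ± 1.01 CPM (1.94, adjusted p = 4.057e-08), beside the rise in epithelial markers given above. The latent binding protein gene Ltbp3 (0.63) and the small proteoglycan gene Dcn (1.08) rose as well. So did Bgn, a related proteoglycan (0.70), which is named after its value was seen. Thbs1, whose protein can release TGF-beta from latency, fell from 864 ± 55.4 to 547 ± 38.1 CPM (-0.66, adjusted p = 6.425e-04). Nrros, a tethering protein gene of macrophages, fell as well (-1.08, adjusted p = 0.00439), whereas 5 of 10 leukocyte markers were called higher and 0 lower. Ltbp4 (0.20, adjusted p = 0.182), Itgb5 (-0.16, adjusted p = 0.0506) and Itgb8 (-0.04, adjusted p = 0.805) were not called in controls, and Ltbp4 rose under compression against Day 0 (0.41, adjusted p = 0.0107, but 0.0521 without compression replicate 4). The latent binding protein genes thus did not move as one, with Ltbp1 lower and Ltbp2 and Ltbp3 higher at Day 2.

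Of 6 other receptor genes 3 fell in controls and none rose. Acvrl1, a type I receptor of endothelium, went from 39.5 ± 12.6 to 10.9 ± 2.38 CPM (log2 -1.87, adjusted p = 3.823e-05), beside the fall of all 10 endothelial markers. The co-receptor gene Eng, named after its value was seen, did not fall (38.4 ± 7.65 and 38.8 ± 4.91 CPM, log2 0.01, adjusted p = 0.962). Bambi, a decoy receptor, fell by 0.65 (adjusted p = 2.022e-04) and Fkbp1a, whose protein holds the type I receptor inactive, by 0.25 (adjusted p = 0.00234). Of 15 Smads and regulators 2 rose and 4 fell, 40.0% of the list, which is close to the 40.2% of all genes. The signal carrier genes Smad3 (-0.25, adjusted p = 0.00167) and Smad4 (-0.24, adjusted p = 0.00627, named after its value was seen), the corepressor Tgif1 (-0.43) and the ubiquitin ligase Smurf1 (-0.21) fell. Smad2, also a signal carrier gene and named after its value was seen, was not called (0.01, adjusted p = 0.859). Pmepa1, a feedback inhibitor induced by TGF-beta (0.37, adjusted p = 0.00634), and the corepressor Ski (0.22, adjusted p = 0.0119) rose. The Ski call was lost without Day 0 replicate 1 or 3 or control replicate 2 (adjusted p up to 0.0609).

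Of 26 widely used transcriptional targets 13 rose and 6 fell in controls, 73.1% of the list against 40.2% of all genes. This list was chosen with earlier results of these data known, so the share is a description only. The rises with the smallest p were those of the cell cycle inhibitor genes Cdkn2b (log2 4.10, adjusted p = 2.378e-06) and Cdkn1a (2.65, adjusted p = 5.929e-06) and of the collagen crosslinking enzyme gene Lox (1.09, adjusted p = 4.914e-06). Cdkn2b rose from a very low level, 0.296 ± 0.0511 CPM at Day 0, to 5.28 ± 1.62 CPM. In Day 0 libraries 3 counts equal 0.0899 to 0.214 CPM, so the size of this rise is uncertain. The mesenchymal transcription factor genes Snai2 (-0.63) and Snai1 (-0.50) and the collagen gene Col5a1 (-0.32) fell, and the Snai1 call was lost without Day 0 replicate 2 or control replicate 1 or 2 (adjusted p up to 0.0715). Many of these genes also respond to other signals, so the list does not measure TGF-beta signalling alone, and Tgfbi and Smad7 did not rise with it in controls.

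Under compression against control, 8 of the 62 pathway genes stood at an unadjusted p under 0.05, beside the 12.1% of all genes given above, and none passed the adjusted threshold. The targets had 22 of 26 positive fold changes with a median of 0.13, where 51.0% of all genes were positive with a median of 0.00392. The latency list had 9 of 15 positive (median 0.044) and the other receptors 5 of 6 (0.0777). Smads and regulators had 6 of 15 (-0.0487). The lists were chosen with earlier results of these data known, so these counts are a description and no test of a pathway response. The genes named next were chosen after their values were seen. The early response gene Junb (0.55), the BMP target Id1 (0.46) and the metalloproteinase inhibitor gene Timp1 (0.36) had positive values, and Angptl4 a negative one (-0.37), at adjusted p between 0.361 and 0.412. In the latency list these were Bgn (0.32) and Lrrc32 (0.36), a tether of latent TGF-beta, and the fibrillin gene Fbn2 (-0.38), at adjusted p between 0.311 and 0.412. Junb, Id1, Bgn and Fbn2 passed with limma-voom.

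**Figure D4:**
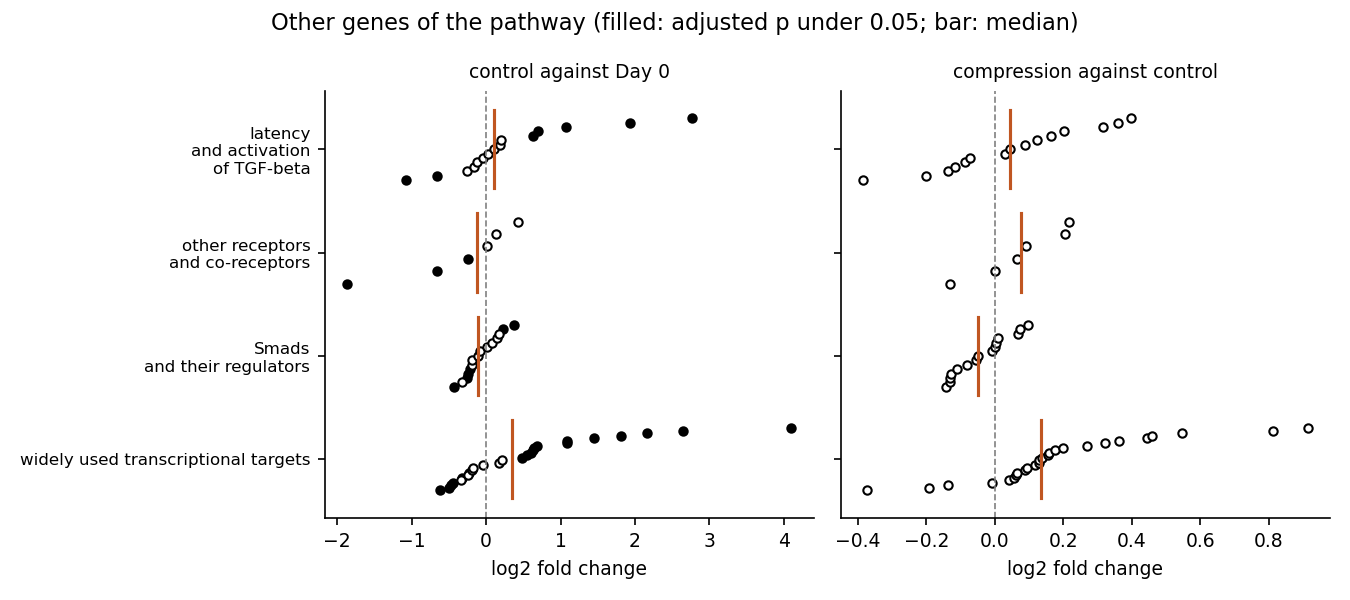
Each point is 1 of the 62 other pathway genes in its list, placed by log2 fold change for controls against Day 0 (left) and compression against control (right, with a narrower axis), filled where the adjusted p was under 0.05, and bars mark list medians. In the left panel 35 points are filled, and in the right panel none, with 22 of 26 targets and 6 of 15 Smads and regulators to the right of 0.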

How the data were processed

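Counts per gene symbol were deposited by the authors for each of the 12 libraries. The submitters' processing notes name fastp, STAR and build mm10, and per the labels' protocols libraries came from total RNA with a KAPA mRNA kit. For the counter, annotation and strand setting the sources used here give nothing, so reads of overlapping genes could not be separated. Coordinates and exon lengths are GENCODE vM21's on GRCm38, the same build as mm10. Genes were kept with edgeR's filterByExpr (minimum count 10, total 15), scaled by TMM and tested in 1 quasi-likelihood fit of all 12 libraries (edgeR 4.0.16, R 4.3.3), with Benjamini-Hochberg adjustment over 15246 genes and a threshold of 0.05. DESeq2 1.42.0 and limma 3.58.1 were alternatives, with other scalings, filters and left-out libraries. The script was tested on simulated data. All 9 members, up to 3 called genes per list and direction, Ltbp and integrin beta genes and the 2 most alike genes per member were named. Members and lists were chosen with earlier results of these data known, and motifs after levels were seen. Windows are RefSeq's. The values of 1 listed pathway gene are not reported here.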

Additional observations from a re-analysis of the deposited data

Results flagged for a closer look

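Among 27 sets of 4 libraries (9 genes in 3 groups), 3 held a library far from the others by Dixon's criterion at the 95% level, which chance alone meets in about 1 in 20 sets. Compression replicate 1 stood apart for Tgfb3 (172.8 CPM, the highest of its group) and for Ltbp1 (121.3 CPM, the highest). Day 0 replicate 3 stood apart for Ltbp1 (162.8 CPM, the highest). The cause was not tested.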

How the results depend on the processing

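Each member's 3 fold changes were recomputed under 17 alternatives, and 408 of 459 values kept their direction and side of the threshold, while 28 lost a call, 12 gained one and 11 turned direction. Genes called higher under compression against control numbered 4 with only the 8 libraries compared, 51 with DESeq2, 1139 with limma-voom and 0 to 52 with 1 library left out. Those called lower numbered 18, 819 and 0 to 10 with DESeq2, limma-voom and 1 library left out. With limma-voom, 1 member was called higher in that comparison and 5 under compression against Day 0. Of the listed pathway genes, limma-voom called 8 higher and 1 lower under compression against control and 20 lower under compression against Day 0. Members called in controls against Day 0 numbered 1 higher without a low-count filter, with only the 8 libraries compared and with compression replicates 2 and 3 summed, and 1 to 3 in either direction with 1 library left out. Log2 fold changes near 0 turned direction. With 1 library left out, compression against control ranged from -0.0738 to 0.0376 for Tgfb2 and from -0.0766 to 0.0377 for Tgfbi (0.0012 with limma-voom). Controls against Day 0 ranged from -0.0595 to 0.0911 for Tgfbr3 (-0.0014 with RLE size factors, -0.0020 with DESeq2) and from -0.13 to 0.0074 for Itgb8. Itgb5, not called in controls against Day 0, passed under 8 alternatives. The cause of these changes was not tested. Deviations of libraries with the same replicate number correlated weakly and in both directions (12 correlations from -0.181 to 0.166). Between Day 0 and controls these correlations were all positive, from 0.0487 to 0.112. The own number was best in 9 of 24 checks, each among 4 libraries. The replicate numbers are those of the titles, and the descriptions of libraries with the same number carry different numbers. The labels thus give no pairing, the correlations do not settle it, and the numbers were not taken as pairs. A block on these numbers parts compression replicates 2 and 3, and its values are given only as an alternative. With the number as a replicate block, Tgfbr2 in controls against Day 0 (0.28, adjusted p = 0.0356) and Tgfb1 under compression against Day 0 (0.45, adjusted p = 3.862e-04) passed, Tgfbi in controls did not (-0.23, adjusted p = 0.0579), and no member passed in compression against control.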
